A study of Mus musculus with 2 samples.

Results

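Integrins are surface receptors made of 1 alpha and 1 beta chain, and 8 chains were followed through single CD4 T cells: Itgal, Itgb2, Itgb1, Itgb7, Itga4, Itgae, Itga2b and Itgam. All 8 were found by symbol among the 12432 genes of the deposited table. The cells were CD4 T cells that recognise 2W1S, a model antigen. They had been FACS-sorted from C57BL/6 mice (spleen and peripheral lymph nodes) after colonization with recombinant Candida albicans that carries it. The table held 178 cells, 82 from a March sample and 96 from an April sample, which carried 1 treatment label and are called captures here. Cell names further split March into the runs Mar1 (25 cells) and Mar17 (57 cells) and April into Apr13 (48 cells) and Apr21 (48 cells). No uncolonized group was analysed here, so every value describes cells of colonized mice. The labels do not say how many mice were pooled, so the spread between captures may be technical.

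A chain reaches the cell surface only with a partner. Itgal and Itgb2 form LFA-1, which binds ICAM adhesion molecules, and Itgam joins the same beta chain in Mac-1 of myeloid cells. Itga4 pairs with Itgb1 in VLA-4, which binds VCAM-1, or with Itgb7 in alpha4beta7, which binds MAdCAM-1 on vessels of the gut and so carries T cells there. Itgae (CD103) pairs with Itgb7 and holds lymphocytes at epithelium through E-cadherin, and Itga2b is the alpha chain of the platelet fibrinogen receptor.

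Values are the deposited log2 numbers, which read as log2 of a TPM-like, per-length value plus 1, and "linear value" means that number turned back from the log2 scale. A cell was counted as holding a chain at a linear value of 1 or more. Read depth per cell is unknown because the authors deposited no counts. Cells had a median of 5068.5 genes above 0, and 3 cells, all in Mar1, had more than 50% of their signal in mitochondrial genes. The T cell genes Cd3d and Cd3g were at 1 or more in 100% of cells, Trac in 96.6% and Cd4 in 70.8%. Of the CD8 T cell genes, Cd8a was at 1 or more in 6.74% of cells and Cd8b1 in 19.7%. Csf1r, the 1 of 12 listed myeloid markers in the table, was at 1 or more in 2.81%. Ebf1, a B cell transcription factor, was at 1 or more in 88.8% of cells with a median of 1.73 on the log2 scale, while Pax5 reached 1 in 14.0%. None of the 8 listed platelet markers was analysed here.

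LFA-1 chains had the highest mean log2 values of the 8. Itgb2, on chromosome 10 (GRCm38, chr10:77530252-77565708, plus strand), had a mean log2 value of 5.59 and was at 1 or more in 176 of 178 cells (98.9%, exact 95% interval 96.0% to 99.9%). By mean linear value it ranked 475th of the 12432 genes. Itgal (chr7:127296260-127335138, plus strand) had a mean log2 value of 3.90 and was at 1 or more in 122 cells (68.5%, 61.2% to 75.3%), and it ranked 863rd. By mean linear value, Itgb7 exceeded Itgal in Mar1 (156.0 against 91.7) and Apr21 (213.2 against 149.9), but not in the other 2 runs. Intervals of shares cover counting error only. Both chains spread widely between cells: Itgal lay below 1 in 56 cells and at 100 or more in 45, and Itgb2 lay between 1 and 10 in 63 cells and at 100 or more in 71.

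The alpha4 and beta7 chains of gut homing, and the beta1 chain, came next and did not separate. Mean log2 values were 2.87 for Itgb7 (chr15:102215995-102231944, minus strand), 2.45 for Itga4 (chr2:79255426-79333123, plus strand) and 1.99 for Itgb1 (chr8:128685654-128733200, plus strand). The ranges of the 4 run means overlapped for these neighbours: 2.59 to 3.08 for Itgb7, 2.20 to 2.63 for Itga4 and 1.40 to 2.63 for Itgb1. Itgb7 was at 1 or more in 79 cells (44.4%, 37.0% to 52.0%), Itga4 in 80 (44.9%, 37.5% to 52.6%) and Itgb1 in 63 (35.4%, 28.4% to 42.9%). Each was below 1 in more cells than not. Among the cells at 1 or more, Itgb7 lay from 1 to 10 in 19 cells, from 10 to 100 in 22 and at 100 or more in 38. Itga4 had 32, 21 and 27 cells in these bands and Itgb1 had 19, 20 and 24. Among the cells that held them, the median linear value was 87.9 for Itgb7, 38.4 for Itgb1 and 23.8 for Itga4, beside 35.5 for Itgal and 46.7 for Itgb2. Itga4 overlaps Cerkl, which lies on the opposite strand, at the 3′ ends of both genes, and whether counting used strand is not given in the sources used here, so reads of that overlap cannot be assigned to either gene.

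**Figure D1:**
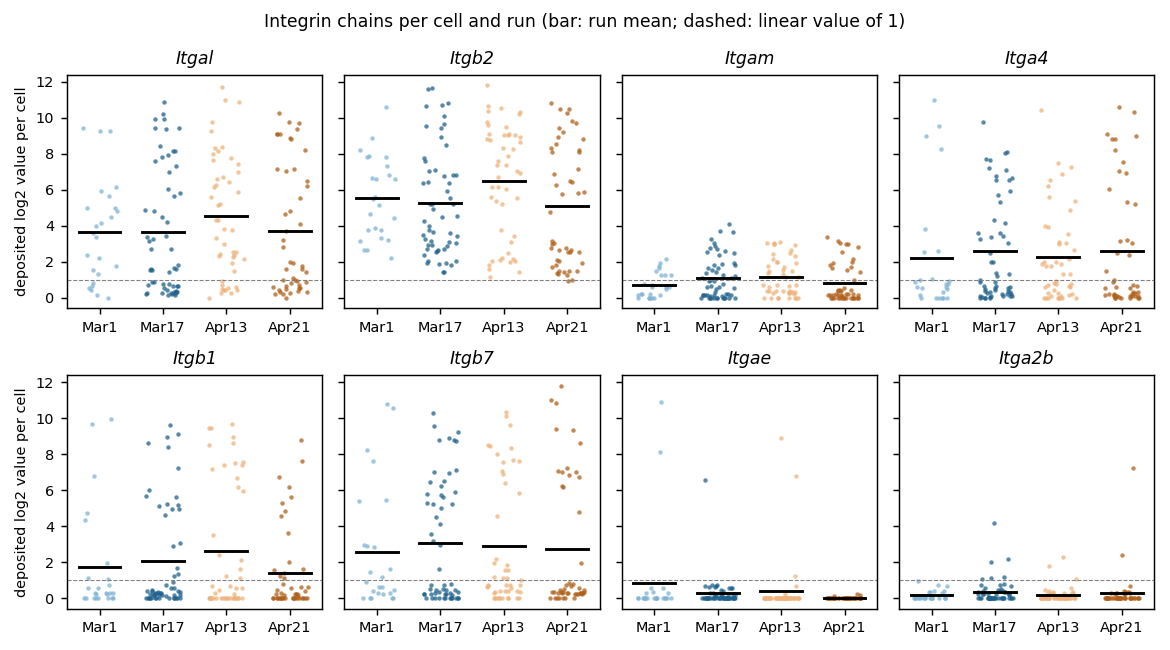
Each point is 1 cell, with the deposited log2 value of 1 integrin chain on the vertical axis and the 4 runs on the horizontal axis. Bars are run means and the dashed line marks a log2 value of 1, which equals a linear value of 1. Itgb2 lies above the line in nearly every cell, Itga4, Itgb1 and Itgb7 lie below it in 98, 115 and 99 cells and spread widely above it in the others, and Itgae stands out in single cells only.

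The remaining 3 chains were low. Itgam (chr7:128062640-128118491, plus strand) was at 1 or more in 72 cells (40.4%, 33.2% to 48.0%), yet at 10 or more in 3 and at 100 or more in 0. The 72 cells with Itgam all held the T cell gene Cd3d, and 1 of them held the myeloid gene Csf1r, compared with 4 of the 106 other cells. Ebf1 was at 1 or more in 95.8% of cells with Itgam and 84.0% of the others, and its part in the Itgam values was not tested. Itgam shares exons with Gm49368 on the same strand, a gene not analysed here. Itgae (chr11:73090583-73147446, plus strand) was at 1 or more in 6 cells (3.37%, 1.25% to 7.19%), and in 4 of these it exceeded 100. Itga2b (chr11:102453297-102470122, minus strand) was at 1 or more in 11 cells (6.18%, 3.12% to 10.8%) and at 10 or more in 2, and all 11 held Cd3d. Mean log2 values were 1.01 for Itgam, 0.31 for Itgae and 0.26 for Itga2b. In the order of the 8 means, the run ranges of Itgb2 and Itgal did not overlap, nor did those of Itgal and Itgb7 or of Itgb1 and Itgam, and the last 3 overlapped with their neighbours.

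**Figure D2:**
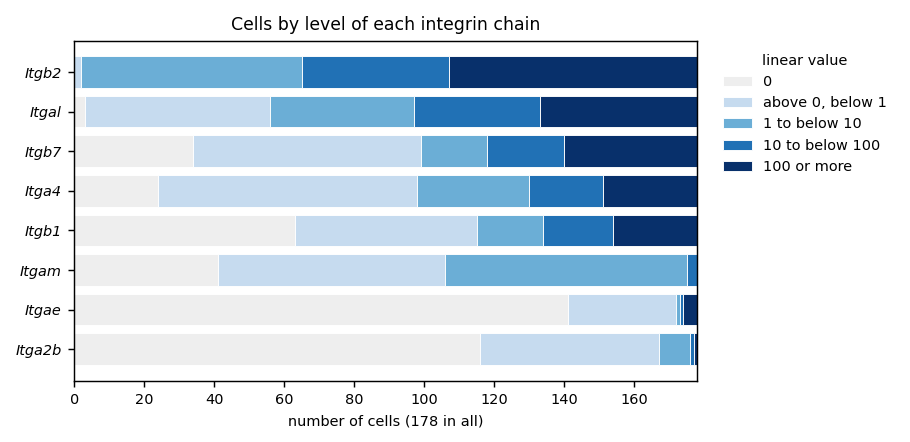
Bars count the 178 cells by linear value of each chain, in 5 bands from 0 to 100 or more. Itgb2 has 71 cells in the top band and Itgb7 has 38, whereas Itgam has 0 there and 69 cells between 1 and 10.

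The gap between the 2 April runs was wider than that between captures for 7 of the 8 chains, the exception being Itgb7, and the gap between the 2 March runs was wider for 6. April minus March was 0.45 for Itgal and 0.45 for Itgb2 in mean log2 value, and the other 6 chains lay between -0.25 and 0.06, beside a median absolute difference of 0.20 over all genes. Within April, Itgb2 had a mean of 6.51 in Apr13 and 5.08 in Apr21, a gap wider than that of 98.9% of genes. Itgb1 had 2.63 in Apr13 and 1.40 in Apr21, a gap wider than that of 97.8% of genes, and Itgal had 4.53 and 3.69. The gut-homing chains had smaller gaps in April, where Itgb7 had 2.87 and 2.75 and Itga4 had 2.24 and 2.63. In March the order differed: Mar17 minus Mar1 was 0.49 for Itgb7 and 0.40 for Itga4, beside 0.33 for Itgb1, -0.31 for Itgb2 and -0.04 for Itgal. Genes detected per cell were alike in Apr13 and Apr21 (medians 4973 and 4921.5), but not in Mar1 and Mar17 (medians 4859 and 5491). Runs within a month count as 1 replicate, and no test was made of month or run.

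Of 19 other integrin chains listed, 6 were in the table. Itgav was at 1 or more in 23.6% of cells, Itgb4 in 18.0%, Itga6 in 12.9%, Itga9 in 5.62%, Itgb6 in 5.06% and Itgb8 in 3.37%. The alpha chain Itga6 pairs with Itgb4 or Itgb1, and Itgav with Itgb6, Itgb8 or Itgb1, so these chains add further possible partners for Itgb1. Of 27 listed genes that switch integrins on or link them to the cytoskeleton, 9 were at 1 or more in 50% of cells or more (33.3%), beside 16.0% of all genes in the table. The adaptors Fyb and Skap1 were at 1 or more in 98.9% and 95.5% of cells, the kinase Stk4 in 86.0%, talin (Tln1) in 62.9%, Rassf5 in 57.9%, Rap1b in 51.7% and kindlin-3 (Fermt3) in 42.7%. At the low end were Tln2 (8.99%), Pxn (paxillin, 9.55%) and Sipa1 (16.9%). Of the ligands, Icam2 was at 1 or more in 41.6% of cells and Jam2 in 23.6%.

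Alpha and beta chains of a pair were combined in cells about as often as their separate frequencies gave. Both Itga4 and Itgb7 were at 1 or more in 35 cells (19.7%, 14.1% to 26.3%), where the product of the 2 shares gave 35.5 cells. Itgb7 was held by 43.8% of the 80 cells with Itga4 (32.7% to 55.3%) and by 44.9% of the 98 cells without it (34.8% to 55.3%). Both Itga4 and Itgb1 were held by 28 cells, where the product gave 28.3. Itgb1 was held by 35.0% of cells with Itga4 (24.7% to 46.5%) and 35.7% of cells without it (26.3% to 46.0%). Of the 80 cells with Itga4, 25 held Itgb7 alone, 18 held Itgb1 alone, 10 held both beta chains and 27 held neither at this threshold. At a threshold of 10, 48 cells held Itga4, and 26 of them held neither beta chain. The share of cells with both Itga4 and Itgb7 by run was 16.0% in Mar1, 21.1% in Mar17, 22.9% in Apr13 and 16.7% in Apr21. The share with both Itga4 and Itgb1 was 4.0%, 19.3%, 20.8% and 12.5% in the same order.

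Across cells, the levels of partners were not ordered together either. Spearman's rho, given as a description because cells share their library, was -0.08 in March and 0.04 in April between Itga4 and Itgb7. It was -0.13 and -0.01 between Itga4 and Itgb1, -0.22 and 0.09 between Itgal and Itgb2, and -0.07 and -0.02 between Itgae and Itgb7. Itgal was held with Itgb2 by 121 cells, and Itgb2 was present in 99.2% of cells with Itgal and 98.2% of cells without it. Counting Itgal, Itgb2, Itgb1, Itgb7, Itga4 and Itgae, 69 cells held 3 of the 6, 50 held 2, 41 held 4, 9 held 1, 8 held 5 and 1 held all 6.

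**Figure D3:**
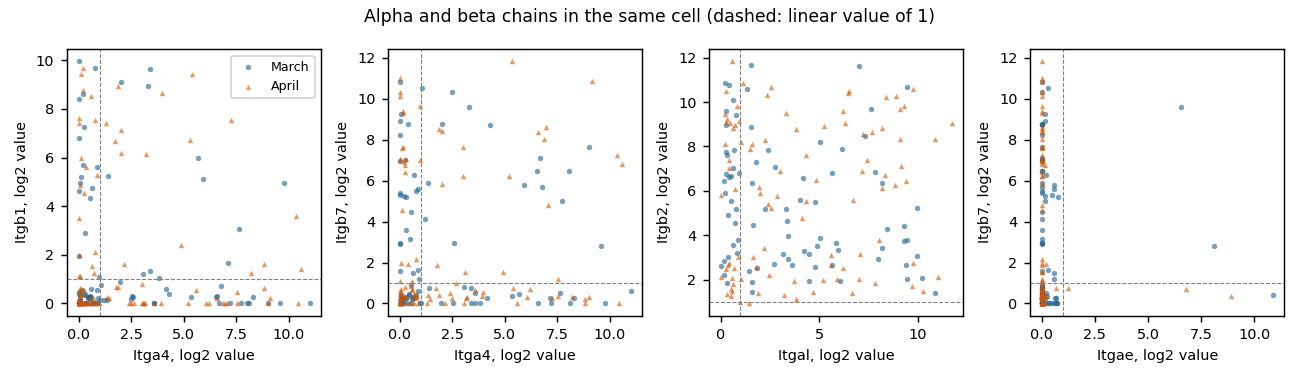
Each point is 1 cell, with the log2 value of an alpha chain on the horizontal axis and of its beta chain on the vertical axis. Circles are March cells, triangles are April cells and dashed lines mark a linear value of 1. The field above both lines holds 28 cells for Itga4 with Itgb1 and 35 for Itga4 with Itgb7, and cells also lie along both axes.

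Cells with both gut-homing chains were set beside the other 143 cells for genes of homing and recirculation. Ccr9, the receptor for the small-intestinal chemokine CCL25, was at 1 or more in 4 of 35 such cells (11.4%, 3.20% to 26.7%) and in 7 of the others (4.90%, 1.99% to 9.83%). The cells share 2 captures, so these intervals do not test the difference. The runs did not all go the same way. Ccr9 was at 1 or more in 1 of 4 such cells and 0 of 21 others in Mar1, and in 0 of 12 and 2 of 45 in Mar17. The counts were 2 of 11 and 3 of 37 in Apr13, and 1 of 8 and 2 of 40 in Apr21. The G protein-coupled receptor Gpr18 reached 1 in 11.4% and 19.6%. The egress receptor S1pr1 reached 1 in 40.0% and 38.5%, Klf2 in 31.4% and 29.4%, and Cd69, which opposes egress, in 65.7% and 67.8%. Of the 9 genes on the gut-homing list, which includes both chains, 6 were in the table. The retinoic acid receptors Rara and Rxra were at 1 or more in 8.43% and 3.93% of all cells.

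The 6 cells with the retention chain Itgae came from Mar1 (2 cells), Mar17 (1 cell) and Apr13 (3 cells), and Apr21 had 0 of 48, for which the exact interval reaches 7.40%. Their linear values were 1882, 485, 277, 108, 93.1 and 1.34. Of the 6, 2 held Itgb7 (33.3%, 4.33% to 77.7%), compared with 44.8% of other cells, and 4 held Itgb1 (66.7%, 22.3% to 95.7%), compared with 34.3% of other cells. Above 0, Itgb7 was in all 6 and in 138 of the 172 others, so its direction depended on the threshold. Foxp3, the transcription factor of regulatory T cells, was at 0 in all 6. Cd4 was at 1 or more in 5 and Cd8a in 2. The kinase gene Haspin lies within Itgae and was at 1 or more in 0 of these 6 cells. Of other genes tied to tissue retention, Cd69 was at 1 or more in 67.4% of all cells, Rgs1 in 54.5%, Runx3 in 32.0% and Cxcr6 in 11.2%.

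Whether other genes moved with a chain was tested by splitting cells at a linear value of 1. Where a class would then have had fewer than 10 cells in a capture, as for Itgb2 and Itgae, cells were split at the capture's median. The mean log2 value of each class in each capture gave 4 values per gene, compared with limma with the capture as a block. Genes passed at an adjusted p (Benjamini-Hochberg over all 10794 genes tested) of 0.05. A difference here is a difference of mean log2 values with zeros included.

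Cells with Itgal (122 cells, 54 March and 68 April) held 12 genes at higher level than cells without it (56 cells), and 0 at lower level, which is 0.111% of genes tested. Icos, a costimulatory receptor of follicular helper T cells, had means of 5.38 and 2.60 in March cells with and without Itgal, and 6.94 and 4.48 in April. It rose by 2.62 ± 0.53 (limma's SE, n = 2 captures, limma adjusted p = 0.0026). Maf, a transcription factor of the same cells, had means of 5.52 and 2.94 in March and 7.04 and 4.73 in April. It rose by 2.44 ± 0.53 (limma adjusted p = 0.0098). Ctla4, an inhibitory receptor, had means of 4.0 and 1.29 in March and 3.72 and 2.39 in April. It rose by 2.02 ± 0.47 (limma adjusted p = 0.022). For these 3 genes the class with Itgal was the higher one in both captures, although Icos differed by 0.0071 in Mar1, where 6 cells lacked Itgal. The other 9 were Polr2g (an RNA polymerase II subunit, 2.20), Ywhah (a 14-3-3 protein, 2.16), Traj27 (a T cell receptor joining segment, 1.84), AW112010 (2.26), Arpc4 (an Arp2/3 actin subunit, 2.17), Sept2 (a septin, 2.17), Inpp5b (an inositol phosphatase, 1.75), Lig1 (a DNA ligase, 1.45) and ENSMUSG00000074148 (1.42), which had no symbol in the tables used. All 12 were higher in both captures, and 10 were higher in all 4 runs, the exceptions being Polr2g (-0.20 in Mar1) and Sept2 (-0.62 in Mar1 and -0.083 in Apr13).

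The follicular helper list had 10 of 11 genes with a positive difference and 2 called (Icos and Maf), with a median of 0.81 beside 0.08 over all genes, of which 60.8% were positive. Cxcr5, the follicle homing receptor, differed by 1.09 ± 0.40 and Pdcd1 by 0.84 ± 0.31, and neither passed the test. Ctla4 was the 1 called gene of 12 tested on the regulatory T cell list, where Foxp3 differed by -0.12 ± 0.16. Of 12 genes of recirculation and egress, 0 were called: S1pr1 differed by -1.47 ± 0.45 (limma adjusted p = 0.19). Of 19 proliferation genes 17 were positive and 0 were called, with a median of 0.21. Of 27 integrin adaptors 14 were positive and 0 were called, with 1.08 ± 0.44 for Fermt3 and 1.08 ± 0.50 for Tln1. The partner Itgb2 differed by -0.47 ± 0.53, and the 95% interval ran from -1.50 to 0.56. It was -1.23 in March alone and 0.29 in April alone. Itgb1 differed by -0.74 ± 0.43 and was lower in all 4 runs, and Itgb7 differed by -0.81 ± 0.48. Neither passed.

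The calls depended on the processing. Their number fell to 5 with a split at the capture median and to 0 without the 3 mitochondrial-rich cells (smallest limma adjusted p = 0.074), without the Mar1 run (0.14), with 4 runs as blocks (0.71), without the block (0.96), with quantile normalization (0.85), with classes weighted to match in genes detected (0.22), with a pseudocount of 10 (0.69), with means of linear values (0.76) and with a split at 10 (0.62). Each of the 12 differences was positive under every one of these settings and in each capture alone. These genes were picked for a positive difference in the same cells, so the kept sign is no separate support for the calls.

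Splitting by the beta chains gave 0 called genes, or 0% of genes tested, in each of 3 comparisons. In limma, 550 (5.10%), 558 (5.17%) and 561 (5.20%) of the genes tested had an unadjusted p under 0.05 for Itgb2, Itgb1 and Itgb7. In cells high in Itgb2 (89 against 89), Itgal differed by -0.38 ± 0.51, with -1.74 in March and 0.98 in April. Itga4 differed by -0.91 ± 0.41 and Itgav by 0.87 ± 0.33, neither passing. Of 17 antigen-experience genes tested, 16 had a positive difference (12 of them in both captures), beside 54.5% of all genes, and 0 were called. Their median was 0.75 beside 0.03 over all genes. The largest difference was that of Capg, an actin-capping protein, at 1.39 ± 0.44, higher in all 4 runs. In cells with Itgb1 (63 against 115), 14 of 16 such genes were positive (10 in both captures), beside 52.8% of all genes, and 0 were called. Their median was 0.34 beside 0.02 over all genes. The memory marker Cd44 differed by 0.86 ± 0.42 and was higher in all 4 runs. Itga4 differed by -0.22 ± 0.39 (-1.08 to 0.64).

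In cells with Itgb7 (79 against 99), the partner Itga4 differed by -0.09 ± 0.43 (-0.95 to 0.77) and Itgae by -0.10 ± 0.16 (-0.42 to 0.23). Cd69 had means that differed by -0.91 in March and -0.90 in April, -0.90 ± 0.50 together, and was lower in all 4 runs. It did not pass (limma adjusted p = 0.97). The genes with the smallest p were Tmx3 (1.29 ± 0.31), Mrgbp (1.16 ± 0.29) and Nbeal1 (1.29 ± 0.32), none of which passed. Of 5 gut-homing genes tested beside Itgb7, 1 was positive and 0 were called. Of 17 antigen-experience genes 15 were positive (10 in both captures), beside 50.2% of all genes, and 0 were called. Their median was 0.43 beside 0.0014 over all genes.

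Splitting by Itga4 (80 against 98) also called 0 genes (0%), with 651 (6.03%) at an unadjusted p under 0.05 in limma. Itgb7 differed by 0.21 ± 0.41 (-0.66 to 1.09) and Itgb1 by -0.13 ± 0.37 (-0.91 to 0.66). Cerkl, whose 3′ end overlaps Itga4, differed by 1.23 ± 0.32 and was higher in all 4 runs. Cd44 differed by -0.95 ± 0.43 and was lower in all 4 runs, and neither passed (limma adjusted p = 0.82 for both). Of 5 gut-homing genes tested beside Itga4, 4 were positive and 0 were called, with 0.17 ± 0.14 for Ccr9. Of 11 follicular helper genes 3 were positive and 0 were called, with a median of -0.38 beside 0.08 over all genes, and Pdcd1 differed by -0.73 ± 0.32. Of 17 antigen-experience genes 14 were positive (9 in both captures), beside 62.1% of all genes, and 0 were called. Their median was 0.34 beside 0.08 over all genes. In the other splits this list had 13 of 17 positive for Itgae and for Klf2, 11 of 16 for Cd44 and 8 of 17 for Itgal. The shares over all genes were 54.1% for Itgae, 45.8% for Klf2, 63.8% for Cd44 and 60.8% for Itgal. The genes with the smallest p were Tagln2, an actin-binding protein (1.89 ± 0.45), and Hnrnpk, an RNA-binding protein (1.94 ± 0.48), and neither passed.

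Cells with any Itgae signal (37 against 141) were compared because only 6 reached a linear value of 1, and in April just 8 cells formed the high class. They had more genes detected, with medians of 5415 and 4973, so the comparison was repeated with both classes weighted to the same tertiles of genes detected, where 0 genes were called as well and the median difference over all genes moved from 0.03 to -0.08. Again 0 genes were called (0%), with 426 (3.95%) at an unadjusted p under 0.05 in limma. Itgb1 differed by 2.04 ± 0.72 (limma adjusted p = 1.0), with 0.27 in March and 3.81 in April, while the partner Itgb7 differed by -0.72 ± 0.70 (-2.10 to 0.65). Cd69 differed by 0.95 ± 0.82 and the aryl hydrocarbon receptor Ahr by 1.46 ± 0.54, and of 11 retention genes tested 7 were positive and 0 were called. Of 12 recirculation and egress genes 10 were positive and 0 were called, with a median of 0.43 beside 0.03 over all genes, while S1pr1 differed by -0.72 ± 0.66. With that weighting Itgb1 differed by 1.48, Itgb7 by -0.18 and Cd69 by 1.07. The retention genes there had a median of 0.06 with 6 of 11 positive, and the recirculation and egress genes one of 0.46 with 10 of 12 positive. Of all genes, 54.1% were positive before the weighting and 41.0% with it. The retention genes had a median of 0.33 before it.

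Klf2, named in the title of the series, is a transcription factor that drives S1pr1 in resting T cells. KLF factors bind CACCC elements, so the sequence before the start of each chain was read from RefSeq (GRCm38.p6), where 5 of the 8 chains had an entry. The window ran from 250 to 11 bases before the RefSeq start. Those printed here belong to the alpha4 chain and its 2 possible beta chains, 5′ to 3′ on the strand of the gene, with CACCC and its reverse complement GGGTG in capitals.
Itga4 (chr2:79255176-79255415, plus strand): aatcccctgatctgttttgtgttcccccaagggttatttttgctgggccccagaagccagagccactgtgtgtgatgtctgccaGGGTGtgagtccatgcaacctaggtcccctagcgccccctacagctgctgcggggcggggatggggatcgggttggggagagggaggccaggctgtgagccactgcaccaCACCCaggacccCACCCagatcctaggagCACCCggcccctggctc
Itgb1 (chr8:128685404-128685643, plus strand): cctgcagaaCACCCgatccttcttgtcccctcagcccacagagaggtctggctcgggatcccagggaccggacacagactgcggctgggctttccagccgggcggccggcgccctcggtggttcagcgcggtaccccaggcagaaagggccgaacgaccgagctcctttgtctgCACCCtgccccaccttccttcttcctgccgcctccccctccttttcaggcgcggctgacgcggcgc
Itgb7 (chr15:102231946-102232185, minus strand): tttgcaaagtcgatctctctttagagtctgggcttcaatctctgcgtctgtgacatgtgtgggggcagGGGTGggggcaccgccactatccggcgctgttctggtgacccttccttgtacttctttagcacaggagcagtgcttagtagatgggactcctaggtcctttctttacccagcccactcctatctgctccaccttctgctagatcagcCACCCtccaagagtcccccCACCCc
Itga4 had 4 matches on either strand, Itgb1 had 2, Itgb7 had 3, Itgam had 3 and Itga2b had 0. The Itga2b window (chr11:102469894-102470133, minus strand) lay mostly inside the gene as GENCODE places it, where the gene reaches 102470122. For Itga2b the count is therefore not one of sequence before the start in both annotations. A match was present in 50.6% of the 32851 windows of this length, so it is common and is a description of the letters only.

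No integrin chain passed the test between cells with and without Klf2 (53 against 125). Of 10794 genes 0 were called (0%), with 738 (6.84%) at an unadjusted p under 0.05 in limma. The chains whose sequences are printed differed by -0.08 ± 0.45 (Itga4), 0.23 ± 0.45 (Itgb1) and 0.42 ± 0.48 (Itgb7), with 95% intervals of -0.99 to 0.83, -0.68 to 1.15 and -0.56 to 1.40. Itgal differed by -0.84 ± 0.52 and Itgb2 by 0.60 ± 0.54. Itga2b, low throughout, had means of 0.54 and 0.18 in March and 0.50 and 0.13 in April. Its difference of 0.36 ± 0.17 was alike in both captures and present in all 4 runs (limma adjusted p = 0.71).

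Cd44, the hyaluronan receptor that marks antigen-experienced T cells, gave 1 called gene (0.00926% of genes tested), Stat4, a signal transducer of interleukin-12. Stat4 had means of 2.25 and 0.53 in March and 2.89 and 0.86 in April, and rose by 1.87 ± 0.36 (limma adjusted p = 0.045) in cells with Cd44 (94 against 84). The call was lost under 10 of 11 alternatives, among them leaving out the Mar1 run (smallest limma adjusted p = 0.053) or the 3 mitochondrial-rich cells (0.29). Among the chains Itgal differed by 0.97 ± 0.49, Itgb1 by 0.54 ± 0.40 and Itga4 by -0.55 ± 0.42, and none passed. Of 27 integrin adaptors 21 were positive and 0 were called, with a median of 0.23 beside 0.09 over all genes, of which 63.8% were positive.

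Over the 8 splits, the 58 differences of a chain other than the one used for the split included 0 past the threshold, and the smallest limma adjusted p was 0.46. Of the 58, 26 had the same sign in both captures and 3 in all 4 runs: Itgb1 by Itgal, Itga2b by Klf2 and Itga4 by Cd44. Shared signs were not counted over all genes. These counts, and the signs by run given above, are therefore a description only.

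**Figure D4:**
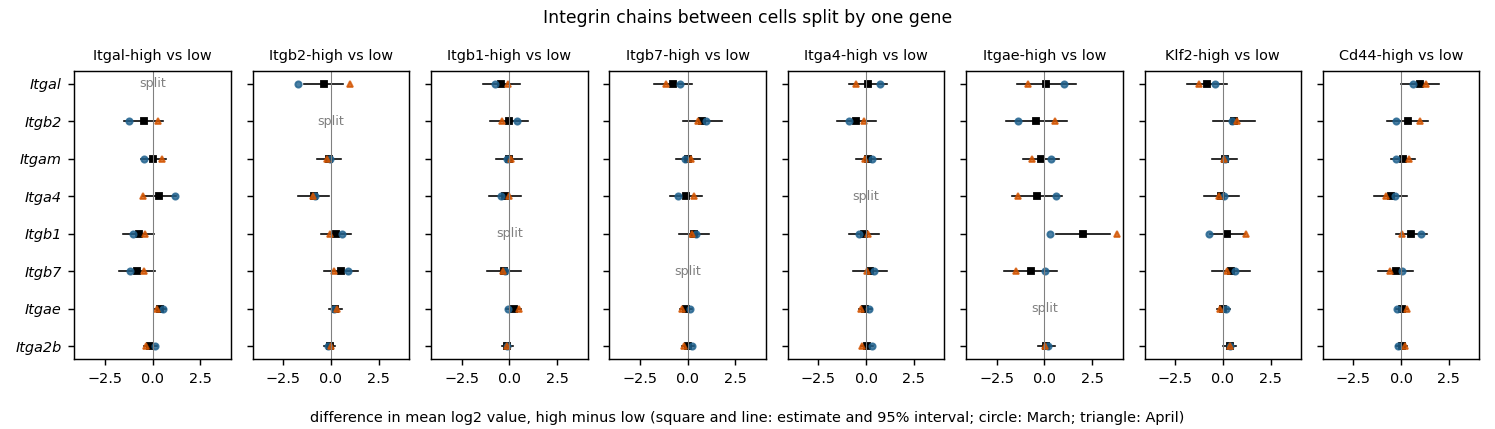
Each panel splits the cells by the gene in its title and shows the difference in mean log2 value, high minus low, of every other chain. Squares and lines are estimates with 95% intervals, circles are March and triangles are April. Most intervals cross 0, and 0 of the 58 differences passed the adjusted threshold.

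Likeness to each chain was ranked by the mean over both captures of Spearman's rho across cells, among genes detected in at least 25% of cells of each capture. The 5 genes most like Itgal were Maf (0.40 in March and 0.26 in April), Osbpl8 (0.22 and 0.41), Icos (0.40 and 0.22), Ctla4 (0.34 and 0.25) and Strn3 (0.30 and 0.27). Those most like Itgb2 were Slc44a2, Esco1, Gm15645, the alpha chain Itgav (0.15 and 0.34) and Kdm5c, and those most like Itgb1 were Vbp1, Lsp1 (an actin-binding protein, 0.32 and 0.19), Etfb, Abl2 and Acot2. Itgb7 was closest to Cd96 (0.27 and 0.25), a receptor of T and NK cells, then Rufy3, Tsc2, Fkbp8 and Gm1966. Itga4 was closest to Tagln2 (0.17 and 0.47), an actin-binding protein, then Glipr2, Mob3b, A830082K12Rik and Cyb5r3. For Itgae they were Rae1, Smad9, Letm1, Grap2 and Map2k3, for Itga2b Etl4, Samd13, Cstf2t, Palld and Cldn34c1, and for Itgam Stx4a (0.42 and 0.35), Prrg3, Invs, Fam81a and Nol3. No partner chain was among any of these lists, but 2 chains could not have been. Itgae was above 0 in 8.33% of April cells, under the 25% needed to be ranked. Itgb3, the beta chain of the platelet receptor, was not analysed here. Across the 6911 genes compared (6912 for Itgae), which are not independent, the rho values of the 2 captures correlated weakly with each other: 0.068 for Itgal, 0.189 for Itgam, and between -0.033 and 0.067 for the other 6 chains.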

How the data were processed

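Per the labels' protocols, cells went through Fluidigm C1 capture and SMART-Seq v4 amplification, so reads cover the whole transcript and are not counted as molecules. The authors deposited log2 values of 12432 genes, and the submitters' processing notes name mm10. The aligner, the counter and its strand setting were not given in the sources used here. Turned back from the log2 scale, minus 1, the values summed to between 892206 and 979888 per cell, so the deposited log2 values were read as log2(TPM-like value + 1). The smallest value per gene fell with transcript length (Spearman's rho -0.66 across 12163 genes). Every gene in the table had a log2 value of at least 2.00 in 4 or more cells, and genes outside it were not analysed here.

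The integrin chains and gene lists were chosen with earlier results of these data known. No cells were removed and no doublet caller was run. Class means per capture were compared with limma 3.58.1 in R 4.3.3 (two-sided, mean-variance trend, 1 residual degree of freedom per gene), keeping genes seen in 10% of cells or more. Both classes come from the same captures, so the capture was kept as a block. Named genes were the 8 chains, the other integrin chains in the table, at most 6 members of each list by smallest p, and at most 12 genes in each direction past the threshold. In comparisons with fewer than 3 calls, the 4 genes of smallest p in each direction could be named as not passing. Shares carry exact Clopper-Pearson 95% intervals. Alternatives changed the split, pseudocount, filter, normalization, block and cells included. Gene positions come from GENCODE vM21 (GRCm38), and other steps used Python 3.11.15 and SciPy 1.17.1.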

Additional observations from a re-analysis of the deposited data

How the results depend on the processing

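With 1 group of 2 captures, cells are not replicates. The p-values rest on 2 captures and on a variance that limma shares across genes. They do not measure a gene's own spread between captures alone. Read depth is unknown, and among nonzero entries 36.6% were under 1 on the linear scale. Leaving out a capture leaves no residual degree of freedom, so those values have no test. Splits that left a class too small were not run (Itgal, Itgb2 and Cd44 above 0, Itgae at 10).

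Without the replicate block, 0 genes were called for Itgal (12 with it) and 0 for Cd44 (1 with it), and the block changed no other call. For Itgal, the count was 5 with the median split and 0 with a split at 10, a pseudocount of 10, linear means, 4 runs as blocks, quantile normalization, classes weighted to match in genes detected, without mitochondrial cells and without Mar1. It was 12 with no filter on low values. The Cd44 count was 0 under the median split, the split at 10, the pseudocount of 10, linear means, no filter, 4 runs as blocks, quantile normalization, without mitochondrial cells and without Mar1, and 1 with classes weighted to match. Counts rose from 0 to 1 for Itgb2 (pseudocount of 10), to 3 for Itgb1 (split above 0) and to 1 for Klf2 (split at 10, and quantile normalization). The cause was not tested for these changes.

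Shares of cells moved with the threshold by construction. From above 0 to at least 10 they were 98.3% and 45.5% for Itgal, 64.6% and 24.7% for Itgb1, 80.9% and 33.7% for Itgb7, 86.5% and 27% for Itga4, 20.8% and 2.81% for Itgae, 34.8% and 1.12% for Itga2b, and 77.0% and 1.69% for Itgam. Itgb2 was at 63.5% at 10 or more, and Itgam at 41.1% without mitochondrial cells. At 10 or more, Itgb2 was in 61.7% of cells with Itgal and 66.7% of cells with Itgam, Itgb1 in 16.7% of cells with Itga4 and Itgb7 in 35.4%. Above 0, Itgb1 and Itgb7 were in 65.6% and 81.2% of cells with Itga4.

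Signs turned only among differences that had not passed the test. Between leaving out replicate 2 (March alone) and replicate 1 (April alone), Itgb2 by Itgal ran from -1.23 to 0.29, Itgal by Itgb2 from -1.74 to 0.98, Itga4 by Itgb7 from -0.52 to 0.34 and Itgb1 by Itga4 from -0.38 to 0.12. Itgae by Itgb7 ran from 0.12 to -0.31 and Itgb7 by Itgae from 0.044 to -1.49. Without Mar1, Itga4 by Itgb1 was 0.10 and Itgb1 by Itga4 0.15. Itga4 by Itgb7 was 0.16 with the split at 10 and 0.016 with 4 runs as blocks. With the split above 0, Itgae by Itgb7 was 0.25 (0.034 at the median), Itgb2 by Itgb7 -0.16, Cd69 by Itgb7 0.086 and Itgb7 by Itga4 -1.72. The cause was not tested.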
